A study of Homo sapiens with 6 samples.

Results

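The 43 genes described here encode the proteasome and its closest partners, and they were found by symbol among the 24462 symbols counted in MDA-MB 231 cells, a claudin-low triple-negative breast cancer line. They comprise the 7 alpha subunits (PSMA1 to PSMA7) and 7 beta subunits (PSMB1 to PSMB7) of the 20S core, the 3 immunoproteasome subunits PSMB8, PSMB9 and PSMB10, 9 base and 8 lid subunits of the 19S regulatory particle, 3 chaperones of base assembly, 5 activators or inhibitors and the core maturation factor POMP. All 43 were among the 12650 genes that passed the filter on low counts, with 39 to 3955 counts per library. PSMA4 was singled out beforehand for a large fall with miR-200a, so its differences are given as a description, with no p.

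Cells were transfected with a negative control (NC) mimic, with the miR-200a mimic, or with the miR-200a mimic together with a plasmid carrying ELK3, and RNA was taken at 48 h from 2 samples per group. The treatment text gives 100 nM for the mimic and 30 ng for the plasmid. The labels name the plasmid in 2 ways, pcDNA3.1-Flag-ELK3 and pcDNA3.1 Hygro(+)-ELK3, and do not say that the other groups received an empty plasmid, so ELK3 and the plasmid itself cannot be told apart. ELK3 is an ETS-domain transcription factor, and miR-200a is a microRNA of the family that keeps epithelial cells epithelial. Libraries were QuantSeq, in which each read comes from the 3′ end of a polyadenylated transcript. They held 3055915 to 4868004 counts, so that 3 counts corresponded to 0.611 to 0.979 CPM (a count divided by the library total, adjusted with edgeR's TMM factors but not for gene length).

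Nothing in the labels says that the 2 samples of a group were separate cultures, so p-values measure only the spread between these samples, which may be technical. ELK3 gave 618 and 509 counts in the NC mimic samples, 493 and 505 counts in the miR-200a samples and 406 and 337 counts in those whose label names the plasmid. It was thus not higher in the last group (log2 fold change against miR-200a -0.23, edgeR adjusted p = 0.354). Against NC mimic it was lower there (-0.79, edgeR adjusted p = 0.0117). A plasmid transcript without ELK3's own 3′ end may not be counted by such reads, which was not tested. The samples that the labels call miR-200a plus ELK3 are therefore named here by their label alone, as the plasmid-labelled libraries. All 8 markers of the line were above 3 counts in every library (summed level 5418 to 5724 CPM with NC mimic, 5978 to 6177 CPM with miR-200a and 4168 to 5296 CPM in the plasmid-labelled libraries), and of 7 markers held to be low or absent in such cells ESR1 was at 0 but 4 were above 3 counts in every library. Among the latter, CLDN4 was at 179 to 234 CPM and GATA3 at 3.29 to 8.72 CPM. EPCAM was at 8.69 and 13.1 CPM with NC mimic, 29.1 and 28.5 CPM with miR-200a and 22.02 and 16.9 CPM in the plasmid-labelled libraries. CLDN4 and EPCAM were thus not absent, whereas CLDN3 gave 0 to 7 counts per library and did not pass the filter. No marker of 9 for other cell types was above 3 counts in every library (summed level 2.23 to 2.94 CPM with NC mimic, 2.65 to 3.11 with miR-200a and 3.53 to 4.26 in the plasmid-labelled libraries). CDH5 and COL3A1 were among those at 0, but PECAM1 gave 3 to 13 counts per library, PTPRC 0 to 10 and CD3E 0 to 5.

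The proteasome degrades proteins tagged with ubiquitin. Its 20S core is a barrel in which outer alpha rings gate entry and inner beta rings hold the proteolytic sites, while the 19S particle on the barrel's end recognises, deubiquitinates, unfolds and feeds in the substrate. Under interferon, PSMB8, PSMB9 and PSMB10 replace the catalytic subunits PSMB5, PSMB6 and PSMB7 and alter the peptides made for MHC class I. When proteasome capacity is short, transcription factors of the NFE2L family raise many subunit genes together.

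The group as a whole moved little with miR-200a and was higher in the plasmid-labelled libraries. The 43 genes took 0.716% and 0.709% of all counts with NC mimic and then 0.714% and 0.718% with miR-200a. Their share was 0.902% and 0.923% in the plasmid-labelled libraries. The first 4 libraries lay close together and the last 2 lay above them. In these bulk samples, more cells that express a gene and more of its RNA per cell cannot be told apart. Summed over the members, the mean level was 7155 ± 121 CPM (SD, n = 2) with NC mimic, 7098 ± 38.9 CPM with miR-200a and 9235 ± 288 CPM in the plasmid-labelled libraries, which is 1.30 times the miR-200a level. By class, the ratio of summed levels to miR-200a was 1.45 for the 19S base, 1.31 for the activators and inhibitor, 1.29 for the lid, 1.29 for the beta ring, 1.24 for the alpha ring, 1.21 for the immunoproteasome subunits, 1.12 for POMP and 1.06 for the assembly chaperones.

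**Figure D1:**
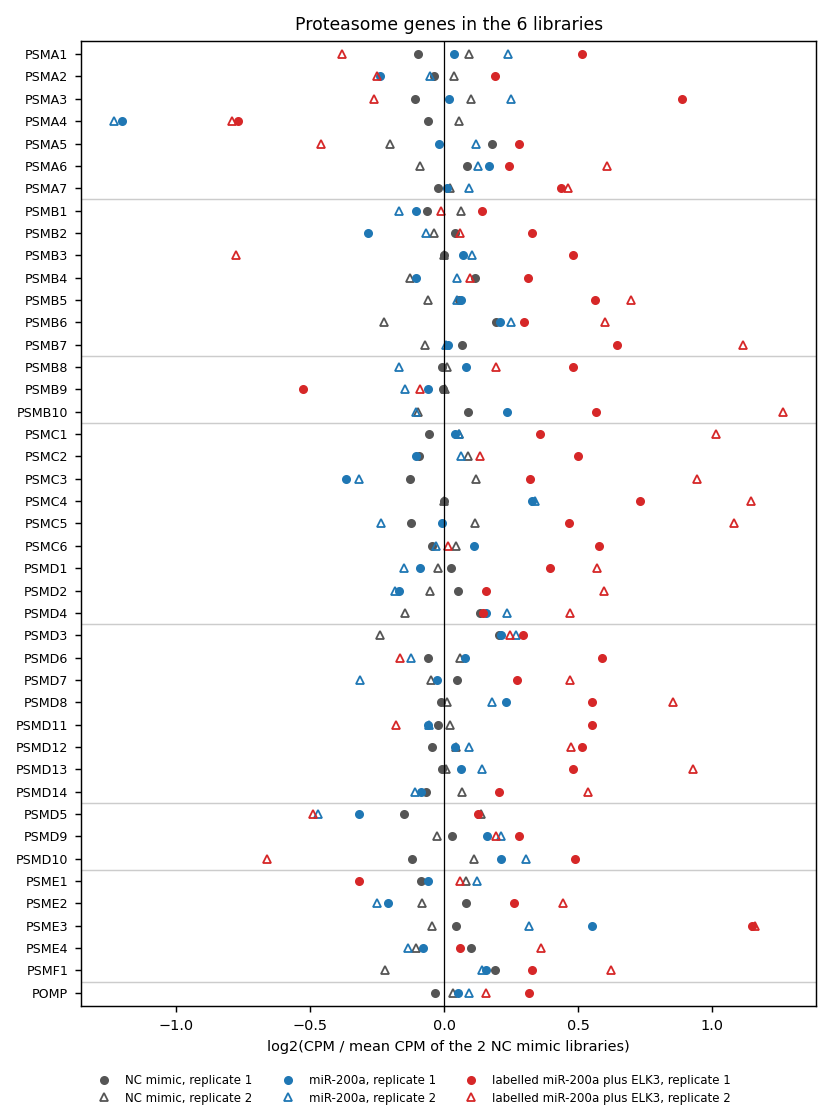
Level of each of the 43 proteasome genes (rows, with grey lines between classes) in the 6 libraries, as log2 of its CPM over the mean of the 2 NC mimic libraries; circles are replicate 1 and open triangles replicate 2. The blue points of miR-200a lie mostly around 0 and are farthest from it for PSMA4, whereas the red points of the plasmid-labelled libraries lie mostly to the right and often far from each other.

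The comparison of miR-200a with NC mimic asked what the microRNA changed on its own. PSMA4, an alpha-ring subunit, was counted 1041 and 770 times with NC mimic, 505 and 505 times with miR-200a, and 598 and 593 times in the plasmid-labelled libraries. As levels these were 232 and 251 CPM, 105 and 103 CPM, and 142 and 139 CPM. The 3 groups did not overlap, with NC mimic highest and miR-200a lowest. The fitted log2 fold change with miR-200a was -1.22 ± 0.12 (SE), which is 0.43 of the NC mimic level.

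The other 42 members lay between -0.39 (PSMD5) and 0.44 (PSME3) on the log2 scale, and 24 of them were above 0. None of the 42 passed edgeR's quasi-likelihood test, the smallest of their adjusted p-values being 0.319 (0.269% of all genes were called, and 0.0553% were lower). At an unadjusted p under 0.05 there were 2 of the 42, both higher (9.24% of all genes in either direction), and DESeq2 called 0 of the 42. PSMA4 is left out of these counts of 42 because it was chosen from this comparison. The counts of members below cover all 43, PSMA4 included, unless stated otherwise. The median log2 fold change was 0.04 over the members and -0.02 over all genes. Among the members, 24 of 43 (55.8%) did not overlap between the groups, beside 48.9% of all genes. Of these, 12 were higher (22.9% of all genes) and 12 lower (26.1%), with PSMA4 among the lower. A fit on the 2 compared groups alone called 3 members, 2 higher and 1 lower, beside 983 of all genes, as did the fits without either plasmid-labelled library (985 and 1010 of all genes), and leaving out any 1 NC mimic or miR-200a library left 0 members.

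PSMD5, a chaperone that holds base ATPases during assembly, was the lowest after PSMA4. Its level was 69.0 and 84.2 CPM with NC mimic, 61.5 and 55.2 CPM with miR-200a, and 83.6 and 54.5 CPM in the plasmid-labelled libraries. The miR-200a libraries were lower than both NC mimic libraries, but the difference of -0.39 ± 0.21 did not pass the test (edgeR adjusted p = 0.637).

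The 6 other alpha subunits give the nearest comparison for PSMA4, since 1 of each enters every alpha ring. Their log2 fold changes with miR-200a lay between -0.14 (PSMA2) and 0.14 (PSMA1, PSMA3 and PSMA6). PSMA4 made up 17.3% (95% exact binomial interval 16.3 to 18.3) and 18.1% (16.98 to 19.3) of the counts of the 7 genes with NC mimic. It made up 8.54% (7.84 to 9.29) and 7.84% (7.20 to 8.52) with miR-200a, and 8.49% (7.85 to 9.17) and 9.39% (8.68 to 10.1) in the plasmid-labelled libraries. The intervals cover counting error only, and those of NC mimic lay apart from those of the other libraries. PSMA4 was chosen for its fall with miR-200a, so this separation is a description and no test. The mean share was 17.7 ± 0.605% (SD, n = 2) with NC mimic, 8.19 ± 0.498% with miR-200a and 8.94 ± 0.632% in the plasmid-labelled libraries. The plasmid-labelled libraries thus overlapped miR-200a in this share, although PSMA4's own level was higher there. A share is free of the scaling between libraries, but how well each 3′ end is captured was not measured.

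**Figure D2:**
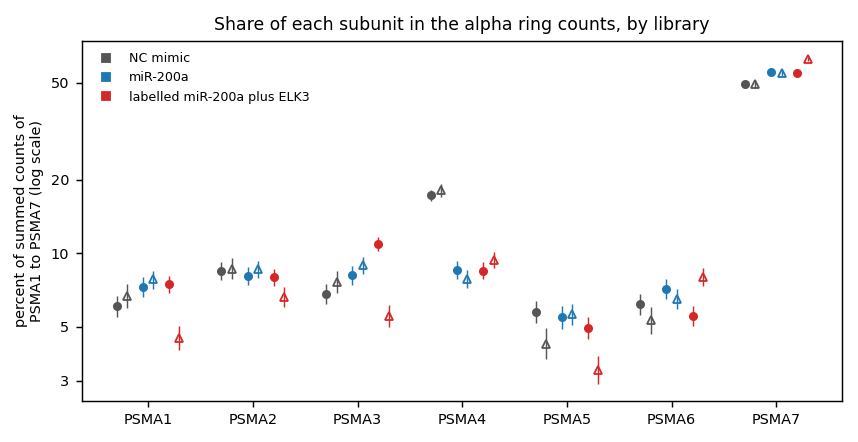
Percent of the summed counts of PSMA1 to PSMA7 given by each subunit in each of the 6 libraries (log axis; circles replicate 1, open triangles replicate 2; bars are 95% exact binomial intervals). PSMA4 falls from 17.3% and 18.1% with NC mimic to between 7.84% and 9.39% in the other 4 libraries, while PSMA1, PSMA3 and PSMA6 differ mainly between the 2 plasmid-labelled libraries.

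The sequence of miR-200a and its matches are shown because the microRNA pairs with mRNA through its seed, bases 2 to 8 of the mature strand. Capitals mark the seed in the microRNA (RefSeq) and, in the transcripts, the 7 bases CAGTGTT that pair with it, with 10 bases on each side (GENCODE 29, GRCh38, each 5′ to 3′).
hsa-miR-200a-3p: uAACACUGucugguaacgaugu
PSMA4, chr15:78550489-78550495, plus strand: caacactaaaCAGTGTTtttttcatag
PSMA5, chr1:109401623-109401629, minus strand: gccaaaaggaCAGTGTTattaatatcc
PSMD5, chr9:120817675-120817681, minus strand: ataatagatcCAGTGTTtttcagattc
PSMD5, chr9:120816728-120816734, minus strand: acctgttttcCAGTGTTcttctctcta
The counts carry no coordinates and were made on hg19, so these positions come from the annotation and not from the deposited values.

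A match to the seed was found in the 3′ UTR of 6 of the 43 members (14.0%), compared with 19.7% of 11234 tested genes with a 3′ UTR. The members' 3′ UTRs were short, with a median of 316 bases against 1123 bases. PSMA4 (chr15:78540405-78552419) has its match at bases 1545 to 1551 of a 3475-base 3′ UTR in the annotated transcript chosen for it (ENST00000044462.11), 1924 bases before that transcript's end. The other 6 coding transcripts of PSMA4, whose 3′ UTRs are 93 to 296 bases long, hold no match. The counts do not say which of these transcripts was read.

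The 5 other members with a match did not share PSMA4's fall. PSMA5 has 2 matches, of which the one shown is followed by an A and is the only such 8-base match among the members, and its log2 fold change with miR-200a was 0.04 (77 and 59 CPM with NC mimic, 67 and 74 CPM with miR-200a). PSMD5 has 2 matches and a value of -0.39, PSMD11 had -0.06, PSMF1 had 0.14 and PSMD9 had 0.19. None of these 5 passed the test. A match is a description of these letters, not a site shown to be bound.

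The comparison of the plasmid-labelled libraries with miR-200a asked what changed when the plasmid was added. Of the 42 members other than PSMA4, 15 were higher and 0 were lower at an adjusted p under 0.05 in edgeR's quasi-likelihood test. Among all genes tested 7.03% were higher and 5.91% lower. PSMA4 makes the count 16 of 43 (37.2%), but its low miR-200a level is what it was chosen for, so its part is no test. The counts that follow include it. At an unadjusted p under 0.05, 20 members were higher and 0 lower (30.6% of all genes in either direction), and DESeq2 called 10 members higher and 0 lower (626 higher and 615 lower of the 12650 genes). Of the 8033 genes within the members' range of mean level, 9.83% were higher. The log2 fold change was above 0 for 37 of 43, and its median was 0.33 over the members and 0.02 over all genes. Both libraries lay above both miR-200a libraries for 28 members (65.1%, beside 30.2% of all genes) and below them for 0 (28% of all genes). The number called depended on the fit. It was 2 when only the 2 compared groups entered, 3 without either NC mimic library, 0 without either miR-200a library, 23 higher and 5 lower without replicate 1 of the plasmid-labelled libraries (17.8% of all genes higher), and 28 higher and 1 lower without replicate 2 (11.3% higher).

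**Figure D3:**
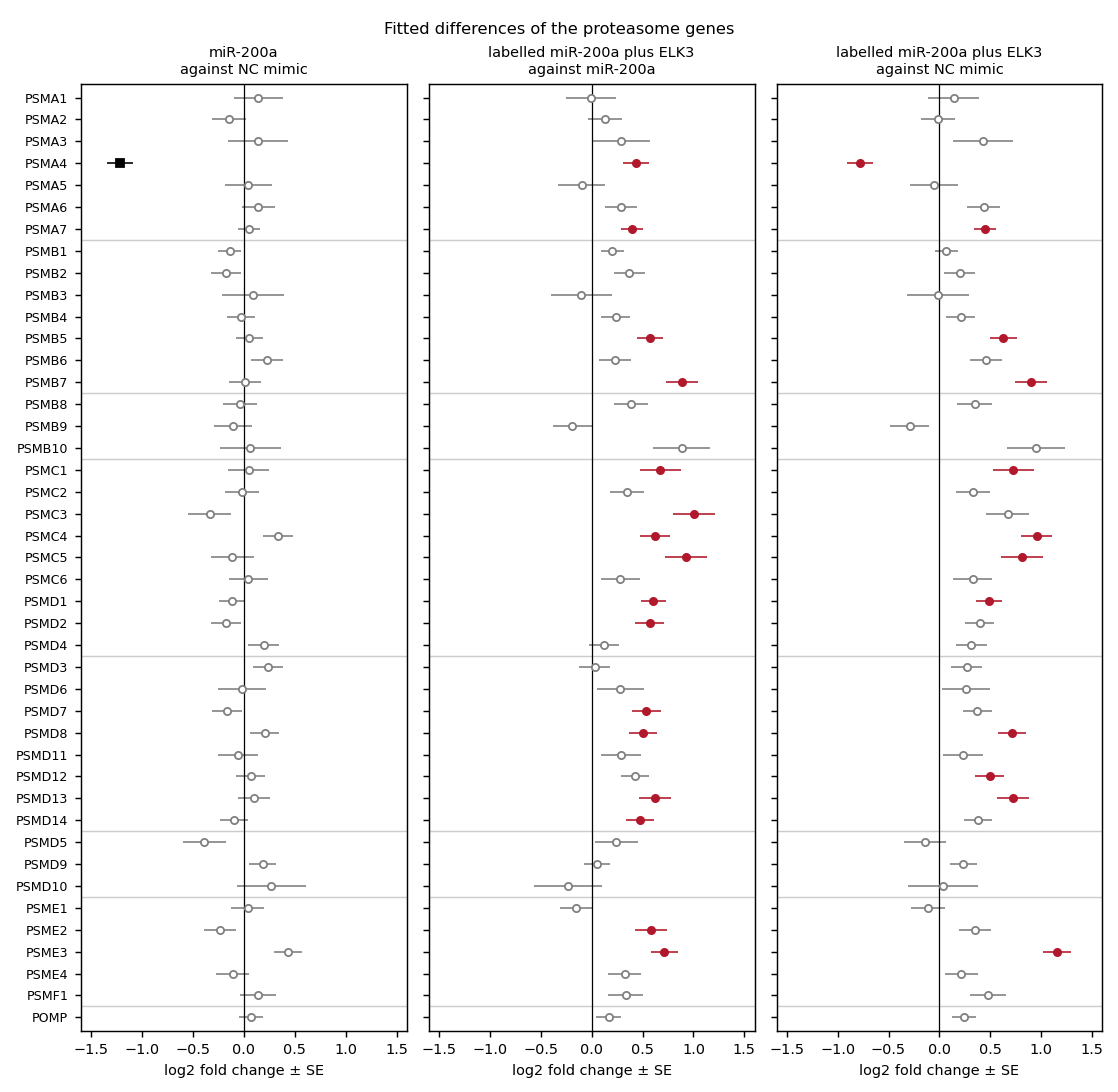
Fitted log2 fold change ± SE of each of the 43 genes (rows) in the 3 comparisons (panels); filled red points have an edgeR adjusted p under 0.05, open grey points do not, and the black square is PSMA4 in the comparison it was chosen from. The left panel is centred near 0 apart from PSMA4 at -1.22, and in the other panels 37 and 36 of 43 points lie to the right of 0. PSMA4 is filled red in those panels too, but libraries that it was chosen on enter them, so its fill is not read as a call.

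The 19S base held the most calls for its size. It is the ring of 6 ATPases (PSMC1 to PSMC6) that unfolds the substrate, with the scaffold subunits PSMD1 and PSMD2 and the ubiquitin receptor PSMD4. Of its 9 genes 6 rose (7.03% of all genes did), with a median log2 fold change of 0.61. The other 3 (PSMC2, PSMC6 and PSMD4) had values of 0.12 to 0.35. The 6 were called in 4 (PSMC1) to 13 (PSMC3) of 16 alternative fits.

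PSMC3 had the largest fold change of any member against miR-200a. It was at 49.0 and 58.1 CPM with NC mimic, 41.5 and 42.99 CPM with miR-200a, and 66.8 and 103 CPM in the plasmid-labelled libraries, a rise over miR-200a of 1.01 ± 0.21 on the log2 scale (edgeR adjusted p = 0.0155). PSMC5 was at 65.0 and 76.7, then 70.4 and 60.1, then 97.8 and 149.9 CPM in the same order, a rise of 0.92 ± 0.21 (edgeR adjusted p = 0.0191). For both ATPases the plasmid-labelled libraries were above the other 4, and replicate 2 of the last group was far above replicate 1.

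PSMC1 was at 71.3 and 77.01 CPM with NC mimic, 76.2 and 77.02 CPM with miR-200a, and 94.97 and 149.7 CPM in the plasmid-labelled libraries (0.68 ± 0.20, edgeR adjusted p = 0.0497). It stood just inside the threshold, and it has 13 named pseudogene copies and lies across from the end of NRDE2 on the other strand, so its counts are uncertain. PSMC4 was at 180.2 and 180.4 CPM, then 226 and 228 CPM, then 299 and 399 CPM (0.62 ± 0.15, edgeR adjusted p = 0.0234). Its miR-200a libraries were already above the NC mimic libraries, although that difference of 0.33 did not pass the test (edgeR adjusted p = 0.532).

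PSMD1 was at 171 and 165 CPM with NC mimic, 158 and 151 CPM with miR-200a, and 221 and 250 CPM in the plasmid-labelled libraries (0.61 ± 0.13, edgeR adjusted p = 0.0152). PSMD2, the other large scaffold of the base, was at 619 and 576, then 532 and 526, then 666 and 904 CPM (0.57 ± 0.15, edgeR adjusted p = 0.0309). In both genes the miR-200a libraries were the lowest of the 6.

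In the lid, which carries the deubiquitinase PSMD14, 4 of 8 genes rose (7.03% of all genes did) and the median log2 fold change was 0.45. PSMD14 was at 214 and 235 CPM with NC mimic, 211 and 208 CPM with miR-200a, and 258 and 325 CPM in the plasmid-labelled libraries (0.48 ± 0.14, edgeR adjusted p = 0.0486). PSMD13, a structural lid subunit, was at 134 and 136, then 141 and 149, then 189 and 257 CPM (0.62 ± 0.16, edgeR adjusted p = 0.0292). Neither gene overlapped between miR-200a and the plasmid-labelled libraries. PSMD14 and PSMC1 were called in only 4 of 16 alternative fits, with fold changes of 0.27 to 0.62 and 0.28 to 0.96, and PSMA7, PSMD7, PSMD8 and PSME2 in 7 of 16.

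PSMD8 was at 125 and 126 CPM with NC mimic, 147 and 142 CPM with miR-200a, and 184 and 227 CPM in the plasmid-labelled libraries (0.51 ± 0.14, edgeR adjusted p = 0.039). PSMD7, which pairs with PSMD14 in the lid, was at 179.7 and 168 CPM, then 171 and 139.8 CPM, then 210.1 and 241 CPM (0.54 ± 0.14, edgeR adjusted p = 0.0354). PSMD12 was at 62.8 and 66.9, then 66.7 and 69.1, then 92.6 and 90.0 CPM, with its 2 last libraries in close accord, and missed the threshold against miR-200a (0.43 ± 0.14, edgeR adjusted p = 0.0689). The remaining lid genes PSMD3, PSMD6 and PSMD11 had log2 fold changes of 0.03 to 0.29.

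In the 20S core, 4 of 14 genes were called higher (7.03% of all genes were), and 1 of the 4 is PSMA4, which the miR-200a libraries chose. PSMB7, which carries the trypsin-like site, was at 324 and 294 CPM with NC mimic, 312 and 310.3 CPM with miR-200a, and 483 and 669 CPM in the plasmid-labelled libraries, and had the smallest p of the members (0.89 ± 0.15, edgeR adjusted p = 0.00791). PSMB5, the chymotrypsin-like subunit and the target of bortezomib, was at 119.8 and 111, then 120.2 and 119.2, then 170.04 and 187 CPM (0.57 ± 0.13, edgeR adjusted p = 0.0198). The caspase-like subunit PSMB6 had a log2 fold change of 0.23 that did not pass the test (edgeR adjusted p = 0.357).

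PSMA7 was at 664 and 684 CPM with NC mimic, 679.8 and 718 CPM with miR-200a, and 911 and 929.5 CPM in the plasmid-labelled libraries (0.40 ± 0.11, edgeR adjusted p = 0.0362). PSMA4 had a fitted difference of 0.44 ± 0.12 from its low miR-200a level, and its 2 last libraries were nearly equal at 142 and 139 CPM. Since the miR-200a libraries chose it, no p is given, and the fold change lay between 0.36 and 0.45 in 16 alternative fits. The other 10 core genes ranged from -0.10 (PSMB3 and PSMA5) to 0.37 (PSMB2).

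Among the activators, PSME3 (PA28 gamma, the nuclear activator that works without ubiquitin) was at 97.3 and 91.4 CPM with NC mimic, 138 and 118 CPM with miR-200a, and 209 and 211 CPM in the plasmid-labelled libraries. The 3 groups did not overlap, and the difference from miR-200a was 0.71 ± 0.13 (edgeR adjusted p = 0.0105). The lower step, 0.44 with miR-200a against NC mimic, did not pass the test (edgeR adjusted p = 0.319). PSME2, the interferon-inducible PA28 beta, was at 53.0 and 47.3, then 43.4 and 42.2, then 60.2 and 68.2 CPM (0.58 ± 0.16, edgeR adjusted p = 0.0381). Its ring partner PSME1 (PA28 alpha) had a log2 fold change of -0.15 (edgeR adjusted p = 0.567), while the activator PSME4 and the inhibitor PSMF1 had 0.32 and 0.33 without passing the test. POMP had 0.17 (edgeR adjusted p = 0.377).

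None of the 3 assembly chaperones PSMD5, PSMD9 and PSMD10 was called in any comparison by edgeR or DESeq2, and 0 reached an unadjusted p under 0.05. PSMD10, also known as gankyrin, had the lowest fold change of the members against miR-200a, at 13.4 and 15.7 CPM with NC mimic, 16.8 and 17.9 CPM with miR-200a, and 20.4 and 9.17 CPM in the plasmid-labelled libraries (-0.24 ± 0.33, edgeR adjusted p = 0.669). The last 2 libraries lay on either side of all the others.

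The immunoproteasome subunits did not pass the test with edgeR or DESeq2 (0 of 3 in each comparison), although 2 had an unadjusted p under 0.05 against miR-200a. PSMB8 was at 51.9 and 52.5 CPM with NC mimic, 55.2 and 46.5 CPM with miR-200a, and 72.9 and 59.7 CPM in the plasmid-labelled libraries (0.38 ± 0.17 against miR-200a, edgeR adjusted p = 0.154). PSMB10 was at 14.5 and 12.7, then 16.0 and 12.6, then 20.1 and 32.7 CPM (0.88 ± 0.28, edgeR adjusted p = 0.061). PSMB9 was at 43.2 and 43.4, then 41.5 and 39.1, then 30.1 and 40.7 CPM (-0.19 ± 0.19, edgeR adjusted p = 0.533). PSMB8 and PSMB10 thus had values above 0 and PSMB9 a value below 0.

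Set against the constitutive subunit that each replaces, PSMB9 made up 8.95% and 11.7% of the counts of PSMB9 and PSMB6 with NC mimic and then 8.57% and 7.89% with miR-200a. This share was 5.996% and 6.53% in the plasmid-labelled libraries. The 3 groups did not overlap in these values. Their exact binomial intervals were 7.78 to 10.2 and 9.86 to 13.7, then 7.46 to 9.78 and 6.85 to 9.04, then 5.02 to 7.09 and 5.62 to 7.54 in the same order, and those of neighbouring groups overlapped. The share of PSMB8 with PSMB5 was 30.2% and 32.2%, then 31.5% and 28.0%, then 30.0% and 24.2%. The share of PSMB10 with PSMB7 lay between 3.91% and 4.87% in all 6 libraries, and neither of these shares separated the groups.

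The comparison of the plasmid-labelled libraries with NC mimic shares libraries with both comparisons above, so it is no independent repeat of them. In it 11 members were higher (25.6%, beside 6.92% of all genes). PSMA4 was lower, but it was chosen partly on the NC mimic libraries, so it is not counted as a call. No other member was called lower (5.95% of all genes were). The median log2 fold change was 0.35 over the members and 0.01 over all genes, and 36 of 43 were above 0. At an unadjusted p under 0.05, 19 members were higher and none was lower, with PSMA4 left out of the count (30.6% of all genes in either direction). Both libraries were above both NC mimic libraries for 27 members (62.8%, beside 29% of all genes) and below them for 2 (PSMA4 and PSMB9, beside 27.6% of all genes).

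PSME3 stood highest in this comparison, with a log2 fold change of 1.15 ± 0.14 (edgeR adjusted p = 0.00119), and 15 of 16 alternative fits called it. PSMC4 had 0.95 ± 0.15 (edgeR adjusted p = 0.00461), PSMB7 0.90 ± 0.15 (0.0069), PSMC5 0.81 ± 0.21 (0.0312) and PSMC1 0.72 ± 0.20 (0.0408). PSMD13 had 0.72 ± 0.16 (edgeR adjusted p = 0.0177), PSMD8 0.71 ± 0.14 (0.0118), PSMB5 0.63 ± 0.13 (0.0145), PSMD12 0.50 ± 0.14 (0.045), PSMD1 0.48 ± 0.13 (0.0324) and PSMA7 0.45 ± 0.11 (0.0239).

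PSMA4 was below NC mimic by -0.78 ± 0.12 on the log2 scale, at 0.58 of its level there. The NC mimic libraries also entered the comparison it was chosen from, so this is a description, and the value lay between -0.84 and -0.72 in the 16 alternatives. Of the 11 other members called, 4 were still called when only the 2 compared groups entered. Fewer members were called without any 1 NC mimic or miR-200a library, and more without either plasmid-labelled library. The members' median log2 fold change was 0.36 without replicate 1 of the plasmid-labelled libraries and 0.32 without replicate 2.

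The 2 plasmid-labelled libraries differed from each other far more than other pairs did. The SD of the log2 difference between replicates was 0.52 over the members, compared with 0.19 for NC mimic and 0.14 for miR-200a, and over the 8033 genes of the members' range it was 0.47, 0.24 and 0.19. The members ranged from PSMB3, lower in replicate 2 by -1.25, to PSMB10, higher in it by 0.69. Of the 43 members, 40 were above the miR-200a mean in replicate 1, 33 in replicate 2 and 30 in both, and the median difference was 0.38 and 0.37. The overall shift was thus alike in both libraries, whereas the genes that carried it varied.

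That disagreement went with base composition. Across the 43 members, the difference between the replicates had a Pearson correlation of 0.52 and a Spearman correlation of 0.60 with the GC content of the transcript's last 500 bases, and across 11234 genes Pearson's value was 0.34. Measured from the miR-200a mean, the members' Pearson correlation with GC content was -0.14 for replicate 1 and 0.46 for replicate 2. For the difference between replicates it was -0.28 with NC mimic and -0.24 with miR-200a. Genes share the same libraries and are not replicates, so no p is given. In the 21 members of higher GC content (46.8 to 60.6%) 15 were higher in replicate 2, with a median difference of 0.32, and 10 were called against miR-200a. In the 22 members of lower GC content (25.6 to 44.4%) 8 were higher in replicate 2, with a median of -0.21, and 6 were called. Of the 16 called members 15 were higher in replicate 2, the exception being PSMA4, compared with 8 of the 27 others. With a correction for GC content, chosen after seeing the data, 17 members were higher than with miR-200a (14 of them in common with the 16, and 7.89% of all genes higher), and 14 were higher and 1 lower than with NC mimic (7.87% higher).

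**Figure D4:**
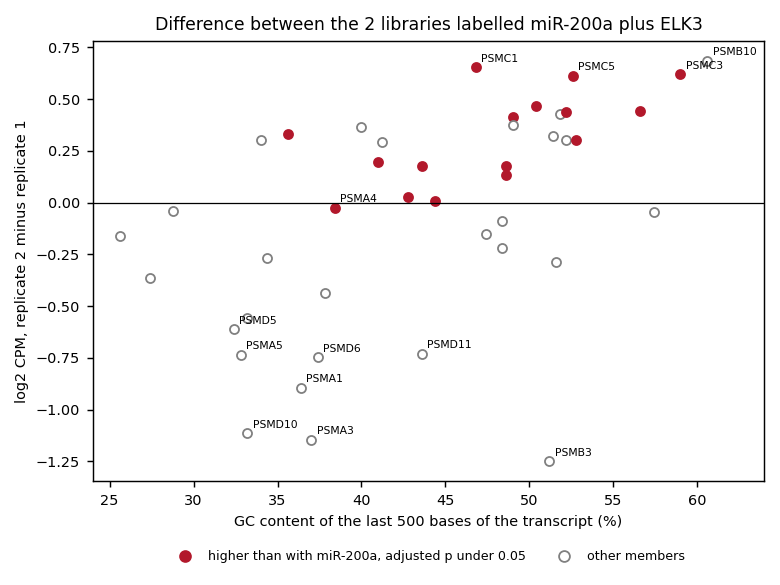
Difference in log2 CPM between replicate 2 and replicate 1 of the plasmid-labelled libraries (y axis) against the GC content in percent of the last 500 bases of the transcript (x axis), 1 point per member, filled red where the gene was called higher than with miR-200a. Points rise from left to right (Pearson 0.52, n = 43), and 15 of the 16 red points lie above 0, the exception being PSMA4, whose fill is not read as a call.

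The promoters were searched because the NFE2L factors act through antioxidant response elements and ELK3 is an ETS factor. RefSeq promoters (GRCh38.p14, 250 bases before to 50 after the start) were matched for 38 of the 43 members and searched on both strands. The element TGACNNNGC was in 11 members' promoters (28.9%) and in 15.1% of 9373 tested genes' promoters (13.6% of all 27305). The ETS-type motif CCGGAAG was in 12 (31.6%, beside 19.6% of tested and 10.7% of all), and CCAAT, the box bound by NF-Y, in 17 (44.7%, beside 37.1% and 35.7%). No match of 1 motif overlapped a match of another in these promoters.

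Among the 14 called members with a promoter, 3 held TGACNNNGC (PSMC4, PSMD1 and PSME2), as did 8 of the 24 others. CCGGAAG was in 5 of the 14 (PSMC1, PSMD7, PSMD8, PSMD13 and PSMD14) and 7 of the 24, and CCAAT in 7 and 10. PSMA4's promoter held none of the 3. The matches upstream of PSME2, which rose against miR-200a, and PSMD12, which rose against NC mimic, are shown on the gene's strand with the element in capitals.
PSME2, chr14:24146768-24146794, minus strand: cctggactgTGACCCAGCcagcaccgc
PSMD12, chr17:67366725-67366751, minus strand: gacaaaaccTGACGCTGCaggctggag
The first lies 175 and the second 165 bases before the start. These are matches of letters and say nothing of binding.

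Other genes of the pathway were taken from 3 lists set beside the members. With miR-200a 0 of the 39 tested were called by edgeR (0.269% of all genes were) or by DESeq2. At an unadjusted p under 0.05 there was 1 (9.24% of all genes). Of 13 tested further subunits and assembly factors, 3 rose and 1 fell in the plasmid-labelled libraries against miR-200a. Among all genes 7.03% were higher and 5.91% lower there. The ubiquitin receptor ADRM1 was at 172 and 166 CPM with NC mimic, 190.4 and 179.9 CPM with miR-200a, and 270.5 and 341 CPM in the plasmid-labelled libraries (0.72, edgeR adjusted p = 0.0117). PSMG3, an alpha-ring assembly chaperone, rose by 1.21 (edgeR adjusted p = 0.0134) and the deubiquitinase USP14 by 0.55 (edgeR adjusted p = 0.0198), while ZFAND5 fell by 0.55 (edgeR adjusted p = 0.0358). Against NC mimic ADRM1, PSMG3 and the deubiquitinase UCHL5 rose and 0 fell (6.92% and 5.95% of all genes).

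Of 15 tested ubiquitin and shuttle genes, 2 rose and 1 fell against miR-200a. These counts are near the shares of all genes (7.03% higher and 5.91% lower), so they say little of the list as a whole. VCP, the segregase that extracts ubiquitinated proteins, rose by 0.56 (edgeR adjusted p = 0.0174) and its cofactor NPLOC4 by 0.72 (edgeR adjusted p = 0.0214). SQSTM1, the autophagy receptor p62, was at 735 and 745 CPM with NC mimic, 709.9 and 728 CPM with miR-200a, and 356 and 421 CPM in the plasmid-labelled libraries (-0.89, edgeR adjusted p = 0.00293). Against NC mimic VCP and the cofactor UFD1L rose and SQSTM1 fell (6.92% and 5.95% of all genes).

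Of 11 factors that act on proteasome genes, only KEAP1, the adaptor that targets NFE2L2 for degradation, was called. It had 0.63 against miR-200a (edgeR adjusted p = 0.043) and 0.65 against NC mimic (edgeR adjusted p = 0.0391). Among all genes 7.03% and 6.92% were higher in these comparisons, and DESeq2 called 0 of the 11. NFE2L1 and NFE2L2 mRNAs had log2 fold changes of -0.22 and -0.28 against miR-200a (edgeR adjusted p = 0.264 and 0.202).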

How the data were processed

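RNA from 6 samples of MDA-MB 231 cells (3 groups of 2) was measured by QuantSeq 3′ mRNA sequencing. The deposited values are raw counts per gene for each library, and the authors' processing notes name hg19, Bowtie2 and edgeR without versions or roles. The annotation, the counter and its strand setting are not given in the sources used here. Counts of the 286 symbols on several of the 25737 lines were summed, PSMB8 and PSMB9 among them.

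Counts were tested with edgeR 4.0.16 in R 4.3.3 (TMM, quasi-likelihood test, filterByExpr with a minimum count of 10, all 6 libraries, group means, 3 residual degrees of freedom), and p-values were adjusted by Benjamini-Hochberg over 12650 genes, with a call at 0.05. Total counts of 3055915 to 4868004 set the precision, and a floor of 3 counts was used. No pair of libraries was a duplicate (chi-square per gene 1.90 to 29.5). Alternatives were DESeq2 1.42.0, limma 3.58.1, other scalings and filters, the 2 groups alone, a replicate block and leaving out each library. GC correction and a crossed block were added after seeing the data.

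The members and lists were chosen with earlier results of these data known. Values in every library are given for PSMA4, for members called in any comparison, for the highest and lowest member of each and for the immunoproteasome subunits, and pathway genes are named where called. Transcripts were from GENCODE 29 on GRCh38, with promoters and the microRNA from RefSeq. Protein sequences were not used here. Some genes of the marker and pathway lists are not reported here.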

Additional observations from a re-analysis of the deposited data

How the results depend on the processing

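The direction of every member called in the main fit, and of the members' medians, was the same in all 16 alternatives, while the number of calls varied. Members not called there could change direction with the plasmid-labelled library kept. On the log2 scale PSMA3 differed from the miR-200a mean by 0.75 in replicate 1 and -0.39 in replicate 2. PSMB3 differed by 0.39 and -0.86, and PSMA1 by 0.38 and -0.52. For miR-200a against NC mimic, members called were 3 in the fit on the 2 groups alone and 0 to 3 when 1 library was left out, and all genes called (34) became 88 with DESeq2, 230 with no filter beyond 1 count, 983 on the 2 groups alone, 13 with the replicate block, 56 with GC correction, 22 with the crossed replicate block and 0 to 1010 when 1 library was left out. For the plasmid-labelled libraries against miR-200a, members called (16) became 10 with DESeq2, 8 with upper-quartile scaling, 8 with the replicate block, 8 with limma on log2 of the count plus 1, 2 on the 2 groups alone and 0 to 29 when 1 library was left out. All genes called (1637) became 2490 with no filter, 542 on the 2 groups alone and 31 to 4684 when 1 library was left out, and upper-quartile scaling turned 889 higher and 748 lower into 622 higher and 882 lower. The PSMA4 log2 fold change against miR-200a was 0.42 with DESeq2, 0.37 with upper-quartile scaling and 0.42 with no filter. It was 0.43 on the 2 groups alone, 0.44 with the replicate block, 0.36 with limma and 0.44 with the crossed replicate block. When 1 library was left out it lay between 0.41 and 0.45. The miR-200a libraries also chose this gene, so no p is given for it. The counts of members called are over all members, PSMA4 included, although it was chosen on these data and its part in them is no test. Without it 11 members were called against NC mimic in the main fit. For the plasmid-labelled libraries against NC mimic, members called (12) became 5 on the 2 groups alone and 0 to 27 when 1 library was left out, all genes called (1629) became 2525 with no filter, 587 on the 2 groups alone and 96 to 4675 when 1 library was left out, and upper-quartile scaling turned 876 higher and 753 lower into 677 higher and 902 lower. PSMA4 there ranged from -0.84 to -0.72 when 1 library was left out. Leaving out 1 library leaves a group with 1 sample, which is assumed to vary like the other groups, and leaving out a plasmid-labelled library removes the pair with the widest spread. Samples with the same replicate number did not deviate together (correlations 0.00, -0.04 and -0.11), so the number was not taken as a pairing. The cause of the changes in the number of calls was not tested. With 2 samples per group and 3 residual degrees of freedom, members whose replicates differ widely could not be resolved at this depth and number of samples.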
